A study of Rattus norvegicus with 9 samples.

Results

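The 10 genes Igf2, Ptgds, Col1a2, Col3a1, Fmod, Igfbp2, Gjb2, Rbp4, Dcn and Lum are expressed by fibroblasts and by the meninges, the membranes that cover the brain. Their levels were measured in the prefrontal cortex on 1 Affymetrix rat expression array for each of 9 animals, all males of the inbred Lewis strain. A probe set was taken as a member when its only annotated symbol was one of these names, which gave 14 probe sets for the 10 genes out of 10411 genes on the array. The rats received no treatment and form 1 group, weighed 200 to 250 g, and are the arrayed subset of 20 rats that went through the behavioural tests. Each carries a startle, locomotion, plus maze and sugar feeding value, without units, although the protocol text does not name the plus maze among the tests of these rats. The tissue was frontal cortex anterior to bregma 4.0 mm without the olfactory bulb, collected 12 days after testing ended. The labels do not say how much of the covering membranes was left on each piece of cortex. Levels are log2 expression, so 1 unit is a 2-fold difference, and probe sets of different genes cannot be compared in level.

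The meninges are built by fibroblasts and by the barrier cells of the arachnoid, which make collagen and secreted proteins found at low level in the cortex itself. In the adult rodent brain Igf2, a growth factor whose gene is imprinted, is made mainly by the meninges and the choroid plexus, and Igfbp2 encodes a protein that binds it. Ptgds encodes the enzyme that makes prostaglandin D2 and is secreted into cerebrospinal fluid, with oligodendrocytes as a further source. Col1a2 and Col3a1 encode chains of the fibrillar collagens I and III, and Fmod, Dcn and Lum encode fibromodulin, decorin and lumican, small leucine-rich proteoglycans that bind collagen fibrils. Gjb2 encodes the gap junction protein connexin 26, and Rbp4 carries retinol.

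The promoters of Igf2 and of the 3 genes with a probe set called in the fit on Igf2 level, Ptgds, Igfbp2 and Col1a2, are shown. Col1a2 is among them by its second probe set alone, and for Col3a1, whose r with Igf2 was 0.926, none is shown. They are RefSeq sequences of the rat build GRCr8, each 300 bases long from 250 bases before the annotated gene start to 50 after it. Igf2 has 2 annotated starts in that table. Capitals mark 3 motifs on either strand, the GC box GGGCGG, the TATA box TATAAA and the CCAAT box CCAAT, and adjoining matches run together.
Igf2, upstream start, chr1:207253931-207254230, - strand: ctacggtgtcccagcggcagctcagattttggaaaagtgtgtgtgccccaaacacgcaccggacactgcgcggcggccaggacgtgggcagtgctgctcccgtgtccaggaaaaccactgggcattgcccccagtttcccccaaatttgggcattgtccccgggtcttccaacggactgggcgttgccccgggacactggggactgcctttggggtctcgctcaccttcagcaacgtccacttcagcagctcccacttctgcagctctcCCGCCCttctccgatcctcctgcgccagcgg
Igf2, downstream start, chr1:207250426-207250725, - strand: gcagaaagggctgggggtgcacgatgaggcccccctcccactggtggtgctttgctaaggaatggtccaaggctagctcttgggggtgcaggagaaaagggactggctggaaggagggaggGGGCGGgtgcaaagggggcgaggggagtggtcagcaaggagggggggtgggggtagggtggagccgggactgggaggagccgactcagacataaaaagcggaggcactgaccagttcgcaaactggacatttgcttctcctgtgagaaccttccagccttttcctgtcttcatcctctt
Ptgds promoter, chr3:28682929-28683228, - strand: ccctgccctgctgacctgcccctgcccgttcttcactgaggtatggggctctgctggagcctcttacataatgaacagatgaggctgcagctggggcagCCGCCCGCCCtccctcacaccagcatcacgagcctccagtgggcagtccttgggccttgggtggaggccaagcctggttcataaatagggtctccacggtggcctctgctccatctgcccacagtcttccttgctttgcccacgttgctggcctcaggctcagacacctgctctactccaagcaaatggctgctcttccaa
Igfbp2 promoter, chr9:81864561-81864860, + strand: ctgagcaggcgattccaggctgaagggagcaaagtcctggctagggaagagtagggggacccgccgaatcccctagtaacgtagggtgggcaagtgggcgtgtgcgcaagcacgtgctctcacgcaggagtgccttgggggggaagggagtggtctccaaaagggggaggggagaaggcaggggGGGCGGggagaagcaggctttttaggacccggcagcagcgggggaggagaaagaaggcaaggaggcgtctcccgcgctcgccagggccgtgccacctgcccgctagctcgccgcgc
Col1a2 promoter, chr4:33518307-33518606, + strand: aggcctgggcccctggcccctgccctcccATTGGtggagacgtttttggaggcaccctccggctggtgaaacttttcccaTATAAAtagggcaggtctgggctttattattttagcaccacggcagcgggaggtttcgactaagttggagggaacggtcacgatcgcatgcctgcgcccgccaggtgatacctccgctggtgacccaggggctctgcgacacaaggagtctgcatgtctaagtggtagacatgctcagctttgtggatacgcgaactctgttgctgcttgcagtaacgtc
Both Igf2 promoters and those of Ptgds and Igfbp2 hold a GC box, which 33.1% of the 33469 rat promoters in the table contain. The Col1a2 promoter holds no GC box but has a CCAAT box, present in 37.5% of all promoters, upstream of a TATA box, present in 14.2%. Of the 8 members with a promoter in the table, 6 had a GC box, 2 a TATA box and 3 a CCAAT box in this window. These matches describe the letters and say nothing of which factors bind.

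Of the 10 members, 9 had a probe set among the 9520 that passed a filter on mean level, whose lowest kept log2 mean was 3.22. Lum did not pass. Its only probe set read between 2.49 and 2.75 in the 9 rats. Igf2 had 4 probe sets, of which 2 read between 1.17 and 1.66 in every rat and were not tested. Col1a2 had 2, both tested, and the other 8 genes had 1 each. For each gene the probe set with the highest mean is the one described, unless another is named. In bulk tissue, a lower level cannot tell fewer cells of a type apart from less RNA per cell.

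Among the secreted factors, Igf2 read 5.14, 8.38, 6.50, 7.87, 5.39, 8.44, 6.99, 8.49 and 5.37 log2 units in rats 1 to 9. Rats 2, 4, 6 and 8 were highest, rats 7 and 3 lay between, and rats 1, 5 and 9 were lowest. The span from lowest to highest rat was 3.35 log2 units, or 10.2-fold, with an SD of 1.41 (n = 9). Only 0.273% of the 9520 tested probe sets had a span at least as large, and the median span was 0.61 log2 units. The second tested Igf2 probe set, which lies at a mean of 3.42, spanned 0.60 log2 units and had rat 2 near its lowest level, so it did not follow the first.

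Igfbp2, the binding protein, read 5.59, 8.50, 6.08, 7.29, 6.04, 7.89, 6.98, 7.65 and 5.92 log2 units in rats 1 to 9. Again rats 2, 4, 6 and 8 were the highest and rats 1, 5 and 9 the lowest. Its span was 2.91 log2 units, a 7.52-fold range (SD 1.02, n = 9). Ptgds, the prostaglandin D2 synthase, read 9.60, 12.18, 10.89, 12.11, 8.80, 11.96, 11.47, 11.92 and 8.83 log2 units. The same 4 rats were highest, at 11.92 to 12.18, and rats 5 and 9 were lowest, at 8.80 and 8.83. The Ptgds span was 3.38 log2 units, or 10.4-fold (SD 1.41, n = 9).

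Of the fibrillar collagens, Col3a1 read 3.72, 5.57, 3.81, 5.00, 3.68, 6.47, 4.47, 5.48 and 2.91 log2 units in rats 1 to 9. Its 11.7-fold span, 3.55 log2 units (SD 1.14, n = 9), was the widest of the members and ranked 15 among the 9520 probe sets. Rat 9, at 2.91, read below the lowest mean kept, so this fold and its rank rest in part on a low reading and are not exact. Col1a2 gave different pictures by probe set. The one with the higher mean read 3.49, 4.18, 3.49, 3.50, 2.78, 3.83, 3.49, 3.49 and 3.42 log2 units. It showed the same value to 2 decimals in 4 rats, with rats 2 and 6 above and rat 5 below. The second Col1a2 probe set, with a mean of 3.44, read 2.30, 5.19, 3.01, 4.35, 2.11, 4.18, 3.01, 4.68 and 2.10. It put rats 2, 4, 6 and 8 highest and rats 1, 5 and 9 lowest, over an 8.53-fold span that reached below the lowest mean kept in 5 rats.

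The proteoglycans did not share 1 pattern. Fmod read 3.18, 4.14, 3.35, 3.42, 3.09, 4.15, 2.93, 3.71 and 3.13 log2 units in rats 1 to 9. Rats 2, 6 and 8 led, within a narrower 2.33-fold span (SD 0.449, n = 9). Dcn read 5.57, 6.87, 5.67, 5.57, 5.41, 5.50, 6.96, 5.39 and 5.49. Only rats 2 and 7 stood out, since the other 7 lay between 5.39 and 5.67, and rat 8 was lowest. RefSeq places Dcn and Lum next to each other in the rat genome, and the Lum probe set had neither rat 2 nor rat 7 among its 4 highest.

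Rbp4, the retinol carrier, read 3.54, 4.79, 3.64, 4.12, 3.49, 4.46, 3.53, 3.63 and 2.80 log2 units, a 3.98-fold span (SD 0.593, n = 9). Gjb2, connexin 26, read 3.14, 3.93, 3.47, 3.40, 2.64, 3.80, 3.18, 3.18 and 2.97, a 2.46-fold span (SD 0.402, n = 9). For both genes rats 2 and 6 were highest. Rat 8, among the top 4 for Igf2, Igfbp2, Ptgds and Col3a1, lay in the middle for both. Fmod, Gjb2, Rbp4 and Col1a2 had means between 3.30 and 3.78, close to the filter.

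Counted over the 9 tested members, rat 2 was among the 4 highest rats for 9, rats 4 and 6 for 8 each and rat 8 for 5. Rats 5 and 9 were among the 3 lowest for all 9 tested members, and rat 1 for 5. The arrays of rats 8 and 9 stand apart from the other 7 over many genes, along a first principal component that held 49.6% of the variance. These rats lay at opposite ends for Igf2, at 8.49 and 5.37 log2 units. The first component had an r of -0.225 with the mean member profile over the 9 rats.

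**Figure D1:**
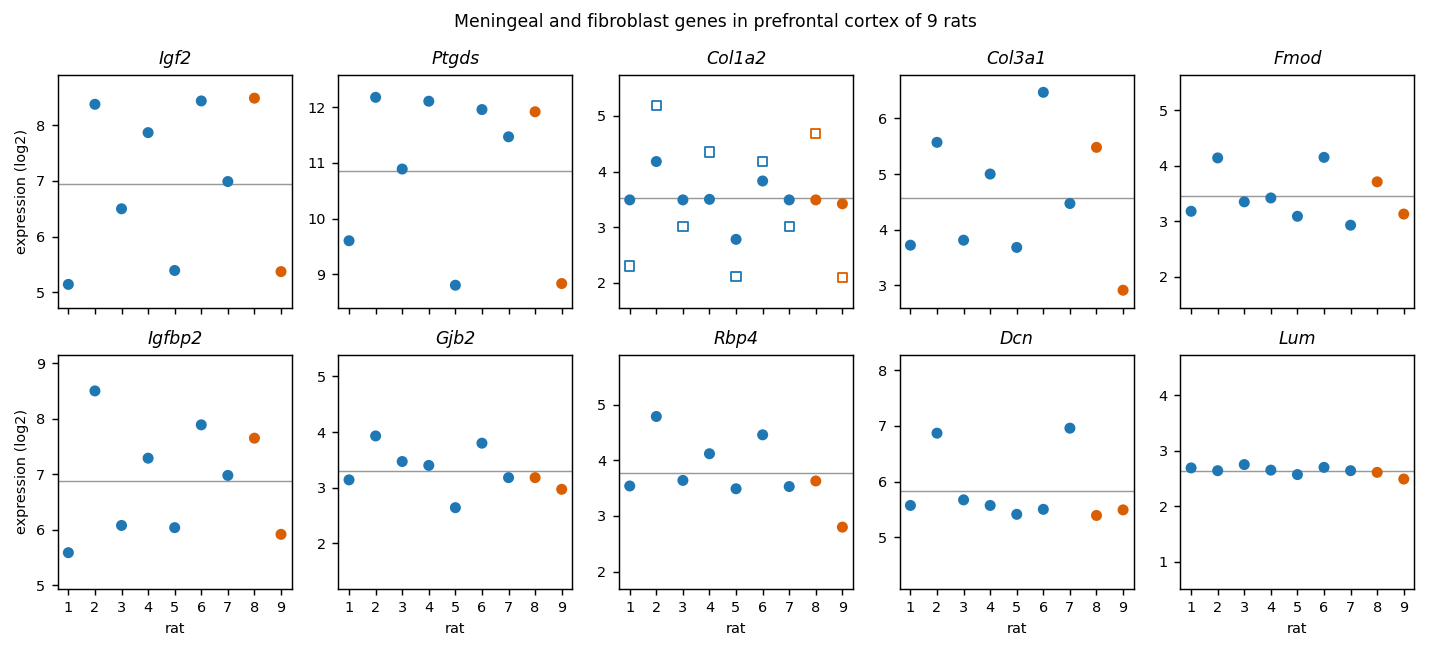
Log2 expression of the 10 members in each of 9 rats, with every panel covering the same range in log2 units. Points are single arrays, orange for rats 8 and 9 and blue for the others, the grey line is the mean, and open squares are the second Col1a2 probe set. Igf2, Ptgds, Igfbp2 and Col3a1 are high in rats 2, 4, 6 and 8 and low in rats 1, 5 and 9, whereas Dcn is high only in rats 2 and 7 and Lum stays between 2.49 and 2.75.

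To ask which genes followed a member across rats, all other probe sets were fitted with limma on that member's level, 1 fit per member, with adjustment over the whole table. In the Igf2 fit 3 of 9518 probe sets (0.0315%) were called at an adjusted p under 0.05, and all 3 belong to members. They were the second Col1a2 probe set at 1.13 ± 0.115 log2 units for each SD of Igf2 (SE, n = 9, adjusted p = 0.0357), Igfbp2 with 0.97 ± 0.111 and Ptgds with 1.33 ± 0.157 (adjusted p = 0.0409 for both in limma). Col3a1 followed at 1.06 ± 0.145, with a limma adjusted p of 0.0833. These calls lay near the threshold. Igfbp2 kept its call without rat 2 (limma adjusted p = 0.0268) or rat 8 (0.0442), and had 0.0601 to 0.199 without rat 1, 3, 4, 5, 6, 7 or 9. Ptgds kept its call without rat 8 (0.0442), and had 0.062 to 0.247 without any other rat. The second Col1a2 probe set kept its call without rat 2, 6, 7 or 8 and had 0.0601 to 0.199 without rat 1, 3, 4, 5 or 9. Without rats 8 and 9 together the limma adjusted p was 0.216 for each of the 3, and the slopes stayed positive. With the Igf2 level replaced by its rank it was 0.482 for Igfbp2, 1 for Ptgds and 0.482 for the second Col1a2 probe set. With no filter on mean level it was 0.144, 0.144 and 0.128 in that order, and without rats 1 and 9 it was 1 for each.

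For single relations the exact p comes from permuting the rats over all pairings, two-sided. Igf2 and Igfbp2 had r = 0.948 (exact p = 0.000521), while the ranks gave rho = 0.933 (exact p = 0.00075). The r was 0.914 when rats 1 and 9, the most extreme in Igf2 level, were left out, and 0.947 without rats 8 and 9. Igf2 and Ptgds had r = 0.943 (exact p = 0.000466), while the ranks gave rho = 0.783 (exact p = 0.0172), with 0.924 and 0.942 in those subsets. The growth factor, its binding protein and the prostaglandin synthase were high and low in the same rats. Igf2 and Col3a1 had r = 0.926 (exact p = 0.00054), while the ranks gave rho = 0.90 (exact p = 0.00203), with 0.913 in both subsets. Igf2 and the second Col1a2 probe set had r = 0.958 (exact p = 0.000513), while the ranks gave rho = 0.862 (exact p = 0.00438), with 0.946 and 0.940.

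Igfbp2 and Col3a1 had r = 0.904 (exact p = 0.00158), while the ranks gave rho = 0.933 (exact p = 0.00075). The r was 0.964 when rats 6 and 9, the most extreme in Col3a1 level, were left out, and 0.90 without rats 8 and 9. Col1a2, by its probe set of higher mean, was closest to Gjb2, whereas the second probe set had r = 0.763 with Gjb2. The one of higher mean read 3.49 log2 units in 4 rats. Its ranks thus rest in part on differences too small to show at 2 decimals. For it and Gjb2, both with means close to the filter, r was 0.928 (exact p = 4.96e-05) and rho 0.954 (exact p = 0.000254). The r was 0.868 without rats 2 and 5 and 0.955 without rats 8 and 9. In the limma fit on Col1a2 the adjusted p of Gjb2 was 0.491, and 0 of 9518 probe sets passed there, while 139 (1.46%) had a positive slope at an unadjusted p under 0.05.

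The 9 tested members gave 36 pairs, whose r over the 9 rats ran from 0.0617 to 0.948 with a median of 0.750. Among all 23069028 pairs of the 6793 tested genes the median r was 0.0698. An r of 0.7 or more was reached by 23 of the 36 pairs, and by 6.04% of all gene pairs. The members were chosen with earlier results of these data known, and the 36 pairs share 9 genes and 9 rats. This contrast is therefore a description and not a test. The 8 pairs with Dcn had the lowest r, from 0.0617 with Fmod to 0.50 with Col1a2. Of these, Igf2 and Dcn had r = 0.267 (exact p = 0.478), while the ranks gave rho = -0.0753 (exact p = 0.854), and r = 0.119 without rats 1 and 9 and 0.366 without rats 8 and 9. Fmod and Dcn had r = 0.0617 (exact p = 0.919), while the ranks gave rho = -0.10 (exact p = 0.80). Without rats 2 and 6 their r was -0.576, and without rats 8 and 9 it was 0.0671. Col3a1 and Dcn had r = 0.190 (exact p = 0.614), Rbp4 and Dcn 0.360 (exact p = 0.314) and Gjb2 and Dcn 0.395 (exact p = 0.281). Their rho were 0.192 (exact p = 0.62), 0.343 (exact p = 0.365) and 0.444 (exact p = 0.234). Without the 2 farthest rats these r were 0.340, 0.0399 and 0.192, and without rats 8 and 9 they were 0.196, 0.257 and 0.329.

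**Figure D2:**
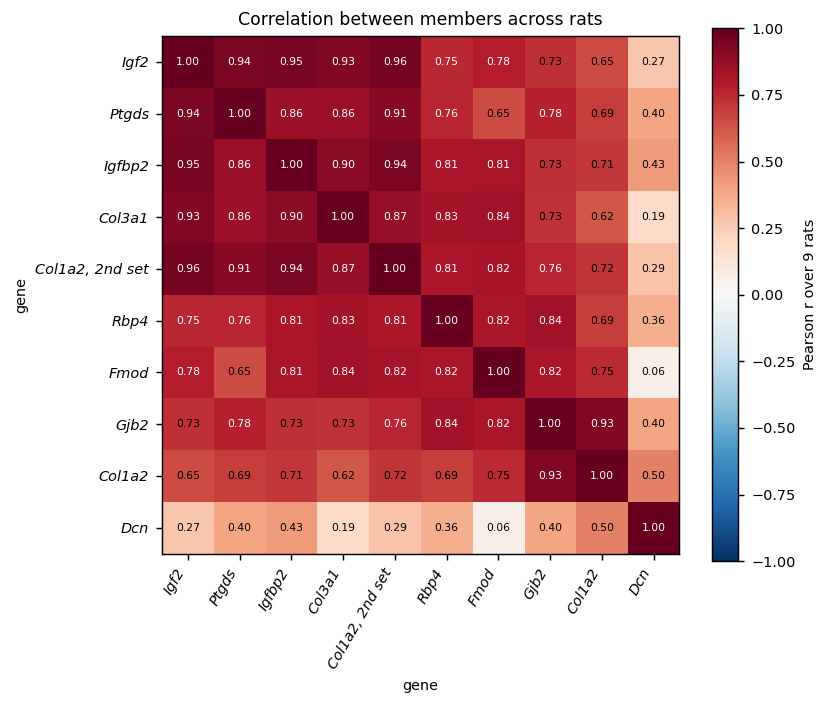
Pearson r between members over 9 rats, with both axes listing genes and colour running from -1 to 1. The block of Igf2, Ptgds, Igfbp2, Col3a1 and the second Col1a2 probe set lies between 0.858 and 0.958, and the Dcn row lies between 0.0617 and 0.50.

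Fitting each of the 36 pairs in both directions gave 72 ordered pairs. The slope of a member on another member's level was positive in 72. Both directions of a pair share the sign of its r, so this count repeats the 36 positive r and adds nothing to them. An unadjusted limma p under 0.05 was reached in 56 ordered pairs, which also count pairs in both directions. Of these 3 passed the adjusted threshold, namely Igfbp2 and Ptgds on Igf2, and Igf2 on Ptgds. At the unadjusted level 7 of 8 other members rose with Igf2, against 0.819% of all probe sets (0.252% with a negative slope), and 7 of 8 rose with Ptgds, against 0.998% (0.410% negative). The count was also 7 of 8 in 6 other fits, each set against its own share of all probe sets with positive and negative slopes at that p. That share was 1.46% and 1.51% for Col1a2, 1.26% and 0.347% for Col3a1, 1.72% and 0.284% for Fmod, 1.04% and 0.231% for Igfbp2. It was 1.99% and 0.683% for Gjb2, and 5.11% and 2.92% for Rbp4. In these 6 fits 0 probe sets passed the adjusted threshold. Since the members were chosen with earlier results of these data known, these counts describe them and are no test. In the fits on Igf2 and Ptgds the exception was Dcn, whose slope on Igf2 was 0.17 ± 0.201 log2 units per SD (SE, n = 9). With Dcn as the level, 0 of 8 other members reached that p, while 188 of 9519 probe sets (1.97%) did so with a positive slope and 244 (2.56%) with a negative one.

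**Figure D3:**
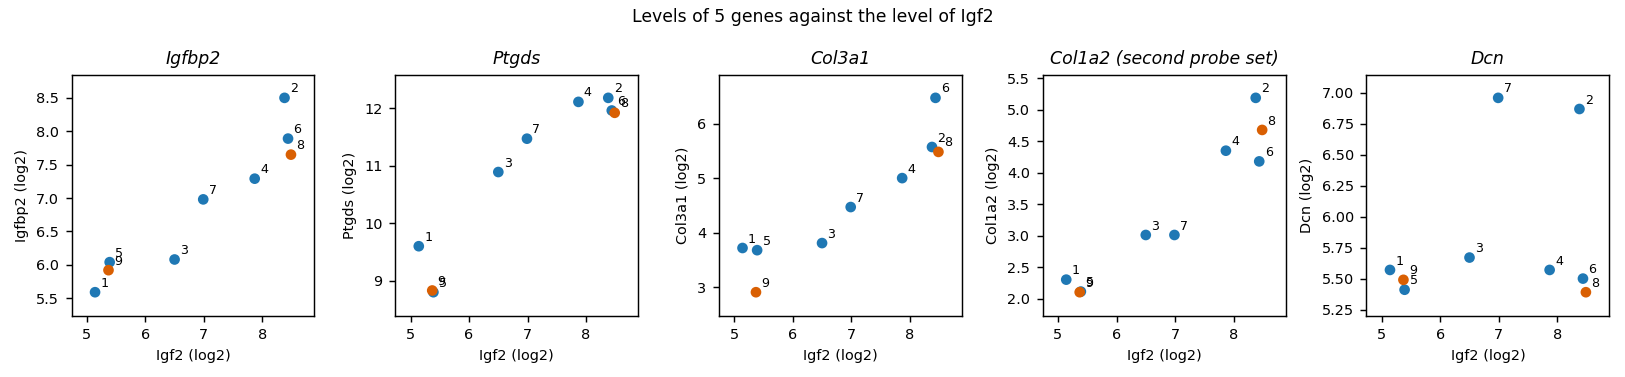
Levels of Igfbp2, Ptgds, Col3a1, Col1a2 (second probe set) and Dcn against the level of Igf2, both in log2 units, with 1 point per rat labelled by its number and orange for rats 8 and 9. The first 4 genes rise along the Igf2 axis from rats 1, 5 and 9 to rats 2, 4, 6 and 8, and Dcn is high in rats 2 and 7 only.

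In the Ptgds fit 3 of 9519 probe sets (0.0315%) were called at that threshold. One was Igf2, at 1.33 ± 0.157 log2 units per SD of Ptgds (SE, n = 9, limma adjusted p = 0.0415), and the other two belong to transporter genes outside the 10, named because they were called. Slc6a20a, a sodium-coupled transporter of proline and related imino acids, rose by 1.11 ± 0.0886 log2 units for each SD of Ptgds (limma adjusted p = 0.00439). That slope belongs to the Slc6a20a probe set with a mean of 5.00. The one with the higher mean, 6.80, rose by 0.31 ± 0.126 log2 units for each SD of Ptgds (SE, n = 9) and was not called. The called Slc6a20a probe set read 3.86, 6.25, 5.37, 6.01, 3.60, 6.00, 5.37, 5.37 and 3.22 log2 units in rats 1 to 9, so rats 2, 4 and 6 were high and rats 1, 5 and 9 low. Its r with Ptgds was 0.975 (exact p = 4.96e-05) and rho 0.966 (exact p = 0.000165), with r = 0.941 without rats 5 and 9 and 0.985 without rats 8 and 9. It lost the call without rat 9 (limma adjusted p = 0.0749), with the Ptgds level as ranks (0.106) and without rats 5 and 9, where the slope was 0.75 (0.961).

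Slc22a8, an organic anion transporter of brain barrier tissues, rose by 0.78 ± 0.0878 log2 units for each SD of Ptgds (SE, n = 9, limma adjusted p = 0.0398). It read 3.13, 4.67, 3.90, 4.07, 2.52, 4.52, 3.54, 4.31 and 2.46 in rats 1 to 9, again with rats 2, 4, 6 and 8 highest and rats 5 and 9 lowest. Rats 1, 5 and 9 read below the lowest mean kept, 3.22, so the slope rests in part on low readings. The r of Slc22a8 with Ptgds was 0.952 (exact p = 0.000344) and rho 0.917 (exact p = 0.00131), with r = 0.853 without rats 5 and 9 and 0.926 without rats 8 and 9. Igf2 on Ptgds and Slc22a8 on Ptgds both kept their call without rat 7. Without any other single rat the limma adjusted p ran from 0.0918 to 0.268 for Igf2 and from 0.0626 to 0.356 for Slc22a8. Without rats 8 and 9 together it was 0.574 for Igf2, 0.609 for Slc22a8 and 0.0138 for Slc6a20a. With the Ptgds level as ranks it was 0.197 for Igf2 and 0.161 for Slc22a8, and with no filter 0.147 and 0.12. Without rats 5 and 9 it was 0.636 and 0.999. Igf2 also lost its call after a further quantile normalization (0.0641), and Slc22a8 with a term for rats 8 and 9 (0.0604).

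The mean z score of the 9 tested members in each rat served as a common profile, and Slc22a8 had the highest r with it among non-members, at 0.945 over the 9 rats and 0.953 without rats 8 and 9. The called Slc6a20a probe set had an r of 0.918 with the profile and the one of higher mean 0.605. By the probe set of highest mean per gene, next came Ctsh, the lysosomal protease cathepsin H, at 0.907, and Cd248, a surface protein of fibroblasts and pericytes, at 0.904. Slc4a4, a bicarbonate cotransporter, had 0.876, Ei24 0.871 and Vim, the intermediate filament vimentin, 0.870. Bmp6, a bone morphogenetic protein, had 0.866, Wls, which carries Wnt proteins to the cell surface, 0.863, Arf2 0.862 and Glmp 0.860. Vim spanned 1.65 log2 units, Bmp6 1.42 and Ctsh 1.11, whereas Cd248 spanned 0.13. Slc4a4, Ei24, Wls, Arf2 and Glmp spanned 0.20 to 0.42, also below the median span of 0.61 over the tested probe sets. Of the 6793 tested genes, 1.58% had an r of 0.7 or more with the profile, and the median was 0.069.

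Other fibroblast and meningeal markers differed widely in how they followed the members. Of 36 such genes 28 were found on the array under the listed names and 12 were tested. Their median r was 0.422 with the member profile, and 0.335 without rats 8 and 9. Slc6a20a, entered in the list as Slc6a20, is not among the 12, although its probe sets were tested and had r of 0.605 and 0.918. In the Igf2 fit 0 of the 12 passed the adjusted threshold and 5 had a positive slope at an unadjusted limma p under 0.05, namely Slc22a8, Col1a1, Aldh1a2, Fn1 and Aebp1. Of all probe sets, 0.819% had such a slope in that fit. Col1a1, the partner chain of Col1a2 in collagen I, had an r of 0.688 with the profile, and 0.918 without rats 8 and 9. It read 4.70, 5.28, 4.72, 4.76, 4.00, 5.11, 4.70, 5.90 and 4.58 log2 units in rats 1 to 9, with rat 8 highest and rat 5 lowest. Aldh1a2, which makes retinoic acid, had 0.661 over 9 rats and 0.833 without rats 8 and 9, and Fn1, fibronectin, 0.652 and 0.915. Col6a1 had -0.452 and -0.524, and Col5a1 -0.374 and -0.511. Ogn, the proteoglycan osteoglycin, depended on the probe set, with r = 0.280 for the one of highest mean and 0.903 for another, which read 5.05, 4.97 and 4.69 in rats 2, 4 and 6 and 2.42 to 3.84 in the other 6.

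Of the collagen synthesis and crosslinking genes 9 of 15 were tested, with a median r of 0.335, and 3 had a positive slope on Igf2 at an unadjusted limma p under 0.05. These were Sparc, which binds collagen in the matrix, with r = 0.774, Serpinh1, the collagen chaperone, with 0.751, and Plod3, a lysyl hydroxylase, with 0.703. Of 18 other collagens 9 were tested, with a median r of -0.0763, and only Col1a1 reached that p. The retinoid genes had 8 of 15 tested, a median r of 0.284, or 0.0717 without rats 8 and 9, and 2 at that p, Aldh1a2 and Cyp26b1, which breaks retinoic acid down. In the insulin-like growth factor system 7 of 15 other genes were tested and 0 reached that p, with Igfbp5, a coding neighbour of Igfbp2 in RefSeq, at r = 0.466. That Igfbp5 probe set spanned only 0.0509 log2 units, and the untested Igfbp5 probe sets had r of 0.0709 and -0.162. Rpl37a, the neighbour of Igfbp2 on the other side, had r = 0.197. For the prostaglandin list 4 of 14 genes were tested, with r from -0.274 to 0.101. For the other proteoglycans it was 2 of 11, with Ogn and Aspn at 0.280 and -0.147 by their probe sets of highest mean. Another tested Ogn probe set had 0.903. The 2 tested connexins of the list of 10 were Gjb6, a coding neighbour of Gjb2, at 0.553 and Gja1 at 0.481. In these lists 0 genes passed the adjusted threshold in the Igf2 fit. An unadjusted p under 0.05 was reached in that limma fit by 0.819% of all probe sets with a positive slope and 0.252% with a negative one. A count of 0 in such a short list cannot be told apart from those shares.

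For markers of other cells the median r with the profile was 0.272 over 8 endothelial genes, 0.133 over 5 mural genes, 0.309 over 6 macrophage genes and 0.217 over 7 oligodendrocyte genes. It was 0.279 over 9 astrocyte genes and -0.0363 over 9 neuronal genes. Without rats 8 and 9 these medians were 0.158, 0.00678, 0.20, 0.148, 0.264 and -0.104 in the same order. The neuronal genes varied: Snap25, a synaptic protein, spanned 0.34 log2 units, whereas Camk2a, a synaptic kinase, spanned 2.41 and Gad2, which makes GABA, 3.05, from 3.15 in rat 3 to 6.20 in rat 8. The Gad2 probe set had a low mean of 4.13, and Gad1, of the same list, spanned 0.73 at a mean of 10.83. Rbfox3, the neuronal marker NeuN, had the lowest r with the profile of the 9 neuronal genes, -0.620 over 9 rats and -0.874 without rats 8 and 9. Tubb3, of the same list, had the highest over 9 rats, 0.432, and had 0.507 without rats 8 and 9. Snap25 had 0.120 over 9 rats. The part of neuronal content in the member levels was not tested. In the Igf2 fit 0 genes of these 6 lists reached an unadjusted limma p under 0.05. Of all probe sets, 0.819% reached it with a positive slope and 0.252% with a negative one. In lists this short a count of 0 cannot be told apart from those shares. The choroid plexus, another source of Igf2, was represented by 2 tested genes of 11, Enpp2 and Folr1, at r = 0.320 and 0.136. Its defining markers did not pass the filter, with Ttr, transthyretin, at 2.54 to 2.70 log2 units and Kl, klotho, at 1.96 to 2.03. The 2 red blood cell genes tested of 5, Hbb and Alas2, had r of 0.256 and 0.221, and the 2 olfactory bulb genes tested of 9 had 0.0485 and -0.209.

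**Figure D4:**
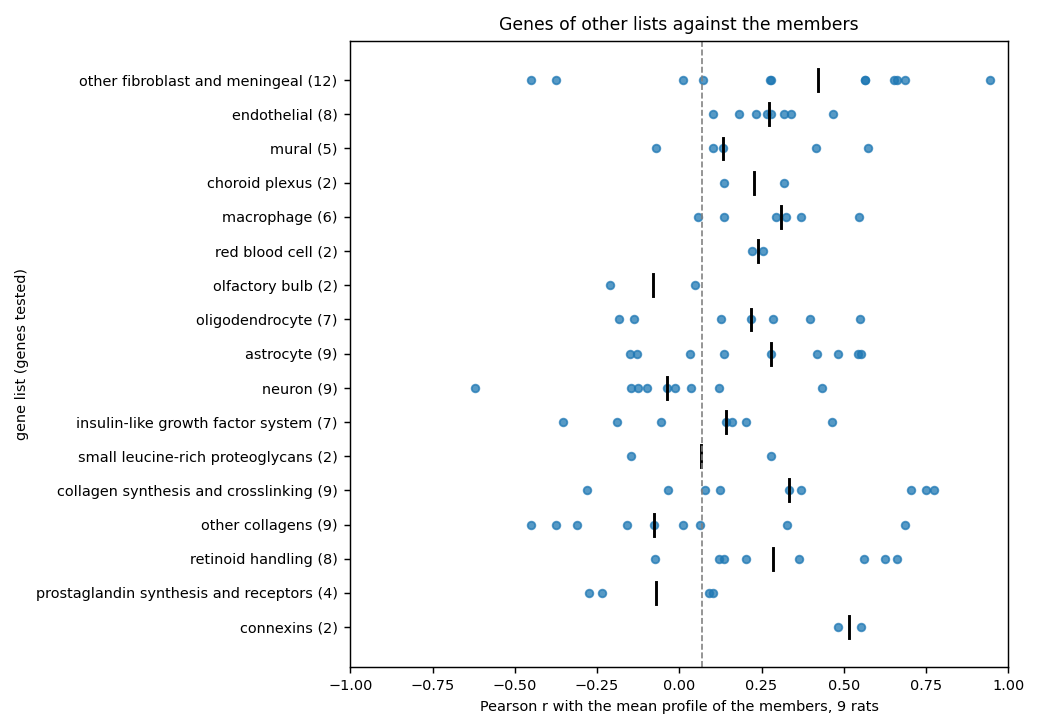
Pearson r of single genes with the mean member profile over 9 rats, by gene list, with the number of tested genes in brackets. Points are genes, black bars list medians and the dashed line the median of all 6793 tested genes, 0.069. The fibroblast and meningeal list reaches from -0.452 to 0.945, and the neuronal list is centred near 0.

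The 4 behaviours were then set against each member over the 9 rats. With limma, adjustment left 0 of 9520 probe sets (0%) called for any of them, and 0 members. For the plus maze the slopes of the 9 tested members were positive in 9, as were 58.2% of all slopes, and 6 members had an unadjusted limma p under 0.05, against 2.45% of all probe sets with a positive slope and 0.546% with a negative one. The rats with the highest plus maze value, 18.7 in both rats 2 and 6, held the 2 highest levels of each of these 6 members. The slope was 0.38 ± 0.0832 log2 units per SD for Fmod (SE, n = 9), 0.48 ± 0.117 for Rbp4, 0.86 ± 0.251 for Col3a1, 0.29 ± 0.0945 for Gjb2, 0.27 ± 0.0884 for Col1a2 and 0.70 ± 0.249 for Igfbp2. The adjusted p was 0.999 for each of these 6 genes in limma. The count of 6 is a description, since the members were chosen with earlier results of these data known.

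Without rats 2 and 6 the plus maze relations were near 0 or weak, and 0 members reached an unadjusted limma p under 0.05. Col3a1 had r = 0.750 (exact p = 0.0181), while the ranks gave rho = 0.723 (exact p = 0.034), with r = 0.334 without rats 2 and 6 and 0.778 without rats 8 and 9. Rbp4 had r = 0.813 (exact p = 0.00816), while the ranks gave rho = 0.672 (exact p = 0.0546), with 0.292 and 0.819 in those subsets. Gjb2 had r = 0.730 (exact p = 0.0266), while the ranks gave rho = 0.504 (exact p = 0.17), with -0.0430 and 0.695. Col1a2 had r = 0.721 (exact p = 0.0127), while the ranks gave rho = 0.671 (exact p = 0.055), with 0.118 and 0.734. The second Col1a2 probe set had r = 0.599 (exact p = 0.0963) and rho = 0.612 (exact p = 0.0862), with 0.156 and 0.621. Its unadjusted limma p was 0.0501, so Col1a2 is among the 6 by the probe set of higher mean alone. Igfbp2 had r = 0.681 (exact p = 0.0445), while the ranks gave rho = 0.580 (exact p = 0.108), with 0.0284 and 0.689. Fmod had r = 0.847 (exact p = 0.00811), while the ranks gave rho = 0.714 (exact p = 0.0375), with 0.230 and 0.872. All 6 relations rest on rats 2 and 6. Leaving out rat 2 or rat 6 alone left 3 of the 9 tested members under that unadjusted p.

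Igfbp2, called in the Igf2 fit, is among the 6 members above, with an unadjusted limma p of 0.0205. Igf2 and Ptgds, each called on the level of the other, had no unadjusted limma p under 0.05 with the plus maze. Igf2 had r = 0.550 (exact p = 0.136), while the ranks gave rho = 0.496 (exact p = 0.178) with it, and r = 0.0219 without rats 2 and 6 and 0.565 without rats 8 and 9. Ptgds had r = 0.473 (exact p = 0.193), while the ranks gave rho = 0.605 (exact p = 0.0912), with 0.0752 and 0.407. Rats 4 and 8, with Igf2 levels of 7.87 and 8.49 log2 units, had plus maze values of 3 and 5.7, and rat 1, with the lowest Igf2 level, had 9. Dcn had r = 0.257 (exact p = 0.605), while the ranks gave rho = -0.0169 (exact p = 0.97), with -0.164 and 0.184. In the plus maze fit 1 of the 12 other fibroblast and meningeal genes and 1 of 9 astrocyte genes had a positive slope at an unadjusted limma p under 0.05, and 0 of the endothelial, mural, macrophage, oligodendrocyte and neuronal genes. The collagen synthesis list had 1 of 9 and the retinoid list 1 of 8. Of all probe sets 2.45% had such a slope, and counts of 0 or 1 in such short lists cannot be told apart from that share. The part of the common member level in these relations was not tested.

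**Figure D5:**
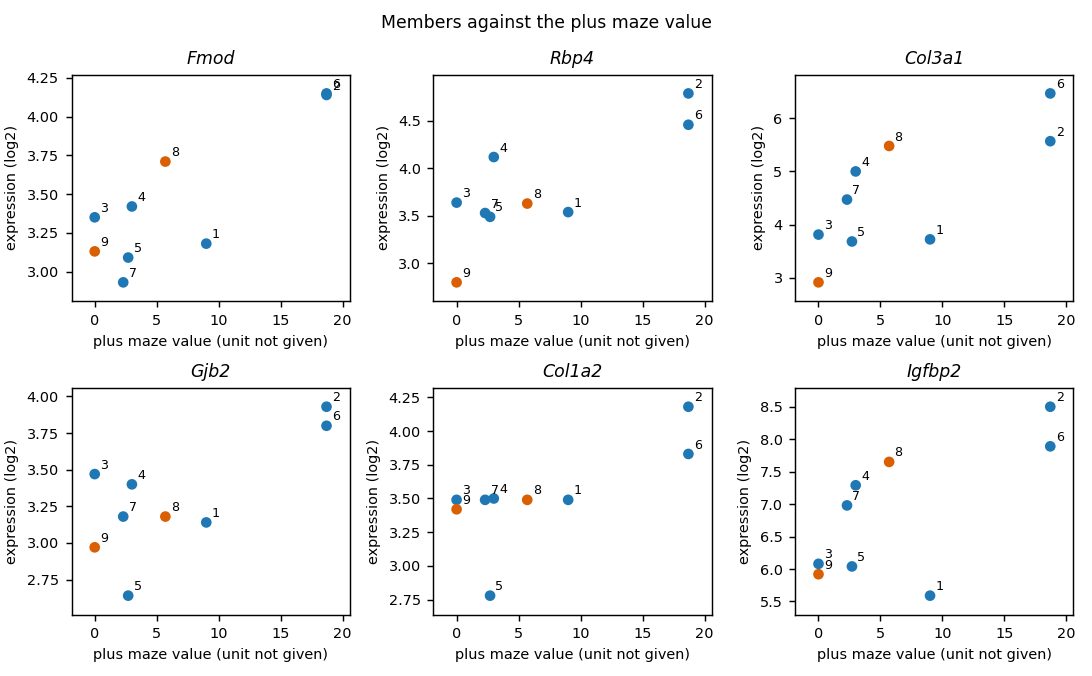
Log2 level of the 6 members with an unadjusted limma p under 0.05 against the plus maze value, whose unit the labels do not give, with 1 point per rat labelled by its number and orange for rats 8 and 9. Rats 2 and 6 share the value 18.7 and hold the 2 highest levels in each panel, while the other 7 rats lie between 0 and 9.

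For startle, locomotion and sugar feeding 0 members reached an unadjusted limma p under 0.05. Of all probe sets, 8.90% reached it with a positive and 4.34% with a negative startle slope, 0.620% and 1.34% for locomotion, and 0.767% and 0.630% for sugar feeding. The startle slopes of the 9 tested members ran from -0.36 for Igf2 to 0.16 for Gjb2 log2 units per SD, 4 positive and 5 negative. Gjb2, with the smallest p, had r = 0.390 (exact p = 0.30), while the ranks gave rho = 0.433 (exact p = 0.25), with r = 0.658 without rats 1 and 3 and 0.349 without rats 8 and 9. The locomotion slopes ran from -0.23 for Ptgds to 0.0063 for Col1a2, with 8 of 9 negative. Dcn had r = -0.241 with locomotion (exact p = 0.548), while the ranks gave rho = -0.351 (exact p = 0.351), with -0.327 without rats 1 and 3 and -0.139 without rats 8 and 9. The sugar feeding slopes ran from -0.19 for Dcn to 0.33 for Ptgds, 4 positive and 5 negative. Dcn had r = -0.309 with sugar feeding (exact p = 0.428), while the ranks gave rho = -0.268 (exact p = 0.483), with -0.151 without rats 4 and 8 and -0.241 without rats 8 and 9.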

How the data were processed

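Total RNA of prefrontal cortex from 9 rats was hybridised to 1 array per rat. The authors deposited 1 log2 level for each probe set and rat. The submitters' processing notes name GCRMA and R 2.6.2, and no source used here states the settings. This method subtracts a background predicted from probe sequence, then scales the arrays alike, so low levels are compressed and some are tied. Names came from the platform annotation, and the table's 57 control probe sets and the lowest 40% of the other 15866 by mean were left out.

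Slopes on each behaviour and on each member's level, both in SD units, were fitted over the 9 rats with limma 3.58.1 (R 4.3.3), two-sided, with Benjamini-Hochberg adjustment over all probe sets tested. The spread is that between animals plus that between arrays, and the number of arrays limits precision. The fit was tested on simulated data. Correlations used exact two-sided permutation (numpy 2.4.6), with 362880 orders for 9 rats and 5040 for 7. Members of other lists were described by r with the mean z score of the tested members. Named slopes are those at an unadjusted p under 0.05, or else the smallest p, named pairs the 5 highest and 5 lowest r, likest genes the top 10 by r with the profile (symbols starting LOC, RGD, MGC or AABR not eligible), and up to 4 genes per list. Neighbours, further probe sets, the second Col1a2 probe set, Slc6a20a and genes given as contrasts were chosen after their values were seen. The members and lists were chosen with earlier results of these data known. Alternatives covered the filter, normalization, ranks, weights, moderation, rats 8 and 9, extreme rats, each rat and the probe set.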

Additional observations from a re-analysis of the deposited data

How the results depend on the processing

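No paired analysis was possible because the rats form 1 group. The 3 calls among ordered member pairs became 0 with no filter, without rats 8 and 9, without the 2 farthest rats and with the second probe sets, 5 with array weights, 4 with the filter at 70%, and 0 to 2 with single rats left out. With ranks 2 pairs were called, Igf2 on Col3a1 and Igf2 on Igfbp2, and the 3 named in the report were not. An unadjusted p under 0.05 was reached by 56 of 72 ordered pairs, by 28 of 72 without the 2 farthest rats, and by 6 of 6 with the filter at 70%, which kept 3 members, Igf2, Igfbp2 and Ptgds. Single rats left out gave 42 to 60. For the plus maze the 6 members at that p became 1 of 3 with the filter at 70% and 0 without rats 2 and 6. They became 5 with the second probe sets, and 3 to 7 with single rats left out. Sugar feeding gave 2 such members without rats 4 and 8, and startle 1, Lum, with no filter, where 1 probe set passed the adjusted threshold. Signs turned for Gjb2 against the plus maze without rats 2 and 6 (slope -0.012, r -0.043), for Igfbp2 on the second Igf2 probe set (slope -0.168), for rho of Dcn with Igf2 (-0.075) and with Fmod (-0.1), and for r of Dcn with Fmod without rats 2 and 6 (-0.576). The cause was not tested. Levels near the array's floor limit Lum, Col3a1, Fmod, Gjb2, Rbp4, Col1a2 and Slc22a8.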
